A study of Mus musculus with 3 samples.

Results

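The miR-135 family was followed through postnatal development of the mouse retina as 5 mature miRNAs, namely mmu-miR-135a-5p, mmu-miR-135a-1-3p, mmu-miR-135a-2-3p, mmu-miR-135b-5p and mmu-miR-135b-3p. These 5 were all the mature forms of miR-135a or miR-135b among the 1915 mature miRNAs listed. The forms were selected by name, and the family itself was chosen from these libraries with its read counts, RPM values and arm ratios already known, so these values are given here as a description without a test. Retinas of C57BL/6 mice at postnatal day 1 (P1), day 7 (P7) and day 17 (P17) had been sequenced for small RNAs. At each age the RNA of 5 pooled eyes made 1 library, with no treatment or genetic change. There were no replicate libraries, so no difference between ages could be set against a spread between animals, and age cannot be told apart from the preparation of a library. Totals were 11426320 (P1), 12759995 (P7) and 11659722 (P17) miRNA reads. RPM scales the reads of each miRNA to a common total of miRNA reads per library. It is a share, so when one abundant miRNA gains reads all others lose RPM.

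A miRNA is cut from a hairpin precursor, which yields a 5p strand from its left arm and a 3p strand from its right arm. One of these strands usually enters Argonaute and guides it to messenger RNAs through its seed, bases 2 to 8, and the other is mostly degraded. MiR-135a and miR-135b share the seed of their 5p strand and are near-identical there. MiR-135 is known in the nervous system for repressing the serotonin transporter and a serotonin receptor, and in the colon for repressing the tumor suppressor APC.

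The mouse genome holds 3 miR-135 hairpins. Sequences and positions below come from RefSeq on GRCm38.p6, the build that mm10 denotes, and 4 of the 5 forms were matched there, all but mmu-miR-135b-5p. Both miR-135a hairpins give the same 5p strand, shown once, whereas each gives a 3p strand of its own, and it is this that lets reads be assigned to a locus. Letters run 5′ to 3′ with the seed in capitals.
mmu-miR-135a-5p: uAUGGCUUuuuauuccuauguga
mmu-miR-135a-1-3p: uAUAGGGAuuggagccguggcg
mmu-miR-135a-2-3p: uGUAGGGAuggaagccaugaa
mmu-miR-135b-3p: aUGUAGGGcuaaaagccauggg
The 3 forms of the 3p arm were less alike than their names imply. From miR-135a-1-3p to miR-135a-2-3p took 7 single-base edits, from miR-135a-1-3p to miR-135b-3p 8, and from miR-135a-2-3p to miR-135b-3p 6. Their seeds are all different, but the bases of the miR-135b-3p seed also open miR-135a-2-3p, a single base before the seed there. None of the seeds of these 4 forms was found in any other of the 1679 mature miRNAs of the table. MiR-135b-5p, which shares the seed of miR-135a-5p, was not among those 1679 and could not be found by this search.

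The Mir135a-1 hairpin occupies positions 106154124 to 106154213 of chromosome 9, plus strand. It is inside an intron of 1 of the 3 transcripts of the non-coding gene D030055H07Rik on the same strand. On the opposite strand it overlaps Glyctk, which encodes glycerate kinase, inside an untranslated exon region of 2 of its 5 transcripts. The Mir135a-2 hairpin occupies positions 92072086 to 92072185 of chromosome 10, minus strand, in an intron of 2 of the 14 transcripts of Rmst, a long non-coding RNA of the nervous system. The Mir135b hairpin occupies positions 132198088 to 132198184 of chromosome 1, plus strand, in an intron of 2 of the 8 transcripts of Lemd1, a protein-coding gene. It also lies in an intron of the only transcript of AC124108.1, annotated as protein-coding on the same strand. MiR-135a-1-3p spans 106154179 to 106154200, miR-135a-2-3p from 92072104 to 92072124, and miR-135b-3p from 132198142 to 132198163 of these chromosomes.

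The 5p strands carried nearly all of the family's reads. The family's part of all miRNA reads was 0.463% in the P1 library, 0.298% in the P7 library and 0.245% in the P17 library. MiR-135a-5p was counted 40998 times in the P1 library, 31561 times in the P7 library and 23003 times in the P17 library. This gave 3588 RPM (95% Wilson interval 3554 to 3623), 2473 RPM (2446 to 2501) and 1973 RPM (1948 to 1998), so each library was below the one before. Ranked by level, miR-135a-5p held place 36 at P1, 41 at P7 and 46 at P17. These and all other intervals given reflect counting error alone, because there was a single library at each age. Amplified reads carry no molecular identifiers and are not independent molecules, so the intervals may be too narrow even for that error.

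MiR-135b-5p, the strand of the third hairpin, was the second form in level at every age. In the order P1, P7 and P17 it had 9637, 5576 and 5127 reads, or 843.4 RPM (827 to 860), 437 RPM (426 to 449) and 439.7 RPM (428 to 452). P1 stood above the other libraries, and the intervals of P7 and P17 overlapped. Its rank was 98, 101 and 97. Of the summed 5p reads, miR-135a-5p made up 81.0% at P1 (Wilson interval 80.6 to 81.3), 85.0% at P7 (84.6 to 85.3) and 81.8% at P17 (81.3 to 82.2). The share was thus highest at P7, and between P1 and P17 the log2 ratio of miR-135a-5p to miR-135b-5p differed by only 0.08 (95% Woolf interval 0.02 to 0.13). Because the sequences of the 5p strands are so close and the counting rule is not given in the sources used here, some reads of one may have been counted for the other or for both. Their sum, in which a read counted for both would enter more than once, was 4431, 2910 and 2413 RPM in the order of age.

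**Figure D1:**
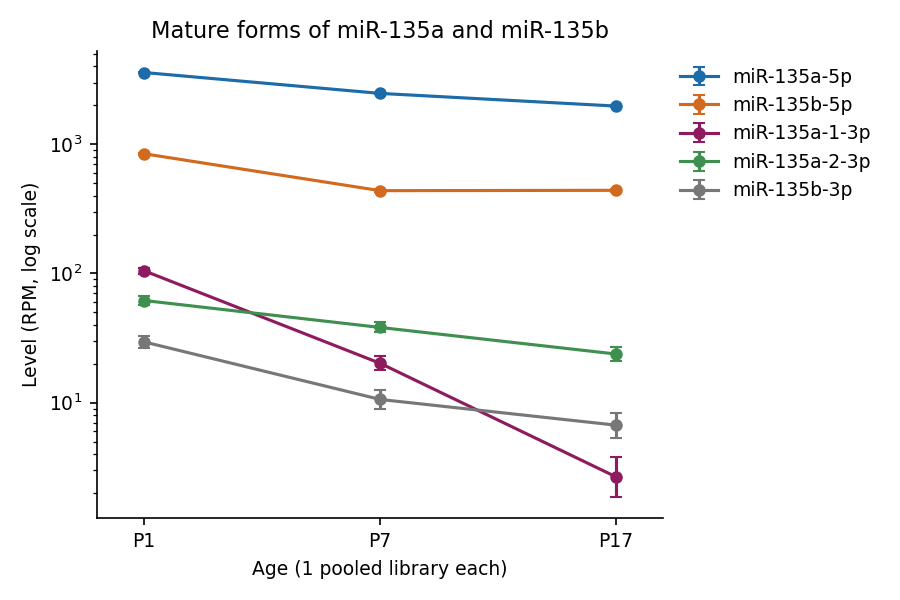
Level of each mature form in RPM (log scale) at P1, P7 and P17, evenly spaced, with 1 pooled library per age; points are the levels and bars the 95% Wilson intervals of counting error. The 5p forms lie at or above 437 RPM at every age, while miR-135a-1-3p crosses the other 3p forms on its way from 104.8 to 2.66 RPM.

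The 3p strands were far rarer and differed from each other. MiR-135a-1-3p had 1197, 257 and 31 reads in the order of age. This was 104.8 RPM (99.0 to 110.9), 20.1 RPM (17.8 to 22.8) and 2.66 RPM (1.87 to 3.77). It was therefore the most abundant 3p form of the family at P1 and the rarest at P17, where its level rested on few reads but stood above the floor of 3 reads, or 0.257 RPM.

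MiR-135a-2-3p, from the hairpin within Rmst, had 705, 487 and 277 reads. The levels were 61.7 RPM (57.3 to 66.4), 38.2 RPM (34.9 to 41.7) and 23.8 RPM (21.1 to 26.7). It was the most abundant 3p form at P7 and at P17. MiR-135b-3p had 337, 135 and 78 reads, or 29.5 RPM (26.5 to 32.8), 10.6 RPM (8.94 to 12.5) and 6.69 RPM (5.36 to 8.35). The order of the 5 levels was thus miR-135a-5p, miR-135b-5p, miR-135a-1-3p, miR-135a-2-3p and miR-135b-3p at P1. By P7 miR-135a-1-3p had exchanged places with miR-135a-2-3p, and at P17 it was also below miR-135b-3p. No neighbours in any of these orders had overlapping counting intervals. The forms of known sequence are 21 to 23 bases long, so their reads differ little in length, but ligation favors some ends over others and the levels of different forms are only roughly comparable.

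Changes between ages were computed as differences of log2(RPM + 1), which understates those of rare forms. They were set against the 648 miRNAs whose mean level reached 1 RPM, all 5 forms among them. From P1 to P17, miR-135a-5p changed by -0.86 and miR-135b-5p by -0.94, close to the median of all 648 miRNAs, -0.91. In relation to that median the differences were 0.05 and -0.03. The fall of the 5p strands in RPM was therefore that of the typical miRNA of these libraries, and another scaling turned its direction. When libraries were scaled by median-of-ratios size factors, which put the median of all miRNAs at 0.01, the same changes were 0.18 and 0.11.

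The 3p forms lay below that median. MiR-135a-1-3p changed by -4.85, and only 6 of the 648 miRNAs changed by a more negative amount. Without a pseudocount its log2 ratio was -5.30 (exact binomial interval -5.86 to -4.79), a 39.4-fold lower level at P17. MiR-135b-3p changed by -1.99, and 142 of the 648 were lower still. Its ratio without a pseudocount was -2.14 (-2.51 to -1.78). MiR-135a-2-3p changed by -1.34, with a ratio of -1.38 (-1.58 to -1.17), and 248 of the 648 were lower still. In relation to the median of all miRNAs these 3 changes were -3.94 for miR-135a-1-3p, -1.08 for miR-135b-3p and -0.43 for miR-135a-2-3p, and with median-of-ratios size factors the forms changed by -3.91, -1.01 and -0.32 in the same order, so that for these forms the sign held.

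**Figure D2:**
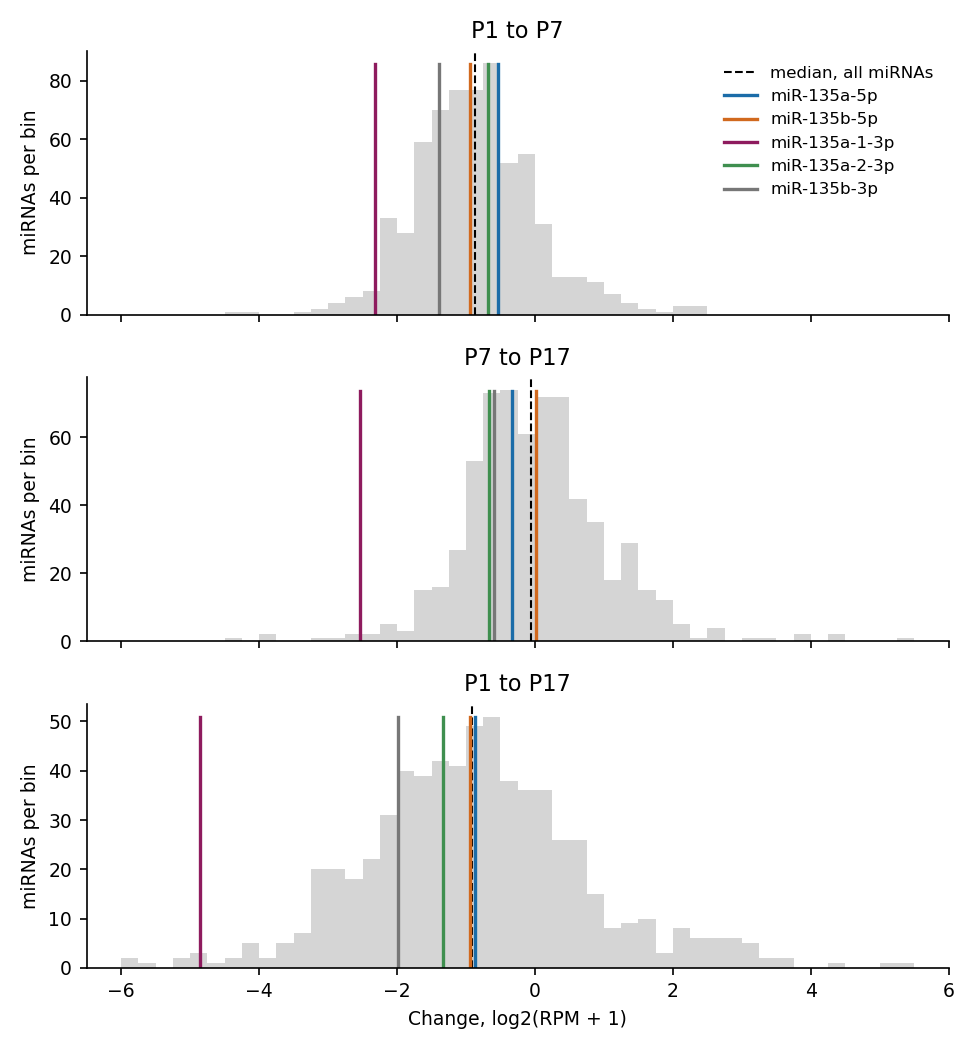
Distribution of the change in log2(RPM + 1) over 648 miRNAs for each pair of ages (grey bars, number of miRNAs per bin of 0.25), with the median of all miRNAs (dashed) and the 5 miR-135 forms (colored lines). MiR-135a-1-3p stands at the low end in each panel, whereas from P1 to P17 both 5p forms (-0.86 and -0.94) lie beside the median (-0.91).

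The fall of miR-135a-1-3p took place over both intervals, with log2 changes of -2.32 up to P7 and -2.53 thereafter. The second of these was lower than that of all but 5 of the 648 miRNAs. Without a pseudocount the ratios of miR-135a-1-3p were -2.38 and -2.92. With median-of-ratios size factors its changes were -1.38 and -2.53, so the relative size of the steps depended on the scaling. Most of the decrease of miR-135b-5p came before P7, at -0.95, and from P7 to P17 its change was 0.01, with a ratio without a pseudocount whose interval ran from -0.05 to 0.06. With RPM, miR-135b-3p also changed more in the first interval (-1.40) than in the second (-0.59). With median-of-ratios size factors its changes were -0.49 and -0.53, so this difference between the intervals depended on the scaling. MiR-135a-2-3p changed by -0.68 and -0.66, and miR-135a-5p by -0.54 and -0.33. By median-of-ratios size factors, however, the change from P1 to P7 was upward for miR-135a-5p (0.42), miR-135a-2-3p (0.26) and, slightly, miR-135b-5p (0.01). The median of all miRNAs was -0.87 for the first interval and -0.05 for the second, so in relation to it miR-135a-5p was 0.33 higher before P7 and changed by -0.27 after it. For the summed 5p reads the changes were -0.61, -0.27 and, from P1 to P17, -0.88.

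Over 2-fold lower levels were found for 3 of the 5 forms from P1 to P17, the 3 forms of the 3p arm, when 46.8% of all tested miRNAs were lower by as much. Before P7, 2 of the 5 (miR-135a-1-3p and miR-135b-3p) were over 2-fold lower against 44.8% of all, and after P7 1 of the 5 (miR-135a-1-3p) against 11.6%. In none of the pairs was any form over 2-fold higher, as were 3.09% of all miRNAs from P1 to P7, 14.0% from P7 to P17 and 10.5% from P1 to P17. A share of 3 of 5 is near the background, and what set miR-135a-1-3p apart was the size of its change. Another scaling gave another background. By median-of-ratios size factors, 155 miRNAs were over 2-fold lower and 165 higher from P1 to P17, against 303 and 68 with RPM, and from P1 to P7 71 were lower and 62 higher, against 290 and 20. Under that scaling 2 of the 5 forms (miR-135a-1-3p and, barely, miR-135b-3p at -1.01) were over 2-fold lower from P1 to P17. After P7, taking the most abundant miRNAs out of the total gave 149 lower and 82 higher, against 75 and 91.

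The relation between the miR-135a loci does not depend on the scaling, since both 3p forms were counted in the same library. Of the reads of miR-135a-1-3p and miR-135a-2-3p together, miR-135a-1-3p held 62.9% at P1 (Wilson interval 60.7 to 65.1), 34.5% at P7 (31.2 to 38.0) and 10.1% at P17 (7.18 to 13.9). Thus the 3p reads of the chromosome 9 hairpin outnumbered those of the chromosome 10 hairpin at P1, and the reverse was seen at P7 and more so at P17. The log2 ratio of miR-135a-1-3p to miR-135a-2-3p was 0.76 at P1, -0.92 at P7 and -3.16 at P17. It changed by -1.69 from P1 to P7 (95% Woolf interval -1.94 to -1.43), by -2.24 from P7 to P17 (-2.82 to -1.66) and by -3.92 over the whole period (-4.48 to -3.37). Both steps exceeded the counting error of these libraries. The common 5p strand cannot be assigned to a locus, so whether its reads shifted between the hairpins in the same way was not tested.

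The same ratio was computed for every other miRNA with distinguishable strands from a first and a second locus, a comparison chosen after the values of miR-135a were seen. Of 11 such miRNAs with both forms past the filter, miR-135a had the largest change from P1 to P17 in either direction. The median size over the 10 others was 1.15. Next came miR-125b, whose ratio of the first to the second 3p form changed by -3.48 (-3.66 to -3.30), an interval that overlaps that of miR-135a, and miR-7a, which changed by 3.05 (2.69 to 3.41). Besides these and miR-219a (-2.01), no other changed by over 2 on the log2 scale. The let-7c pair was left out because its second 3p form had the same reads as let-7a-1-3p in every library. A large shift between loci was therefore seen in a few miRNAs of these libraries, and was not particular to miR-135a.

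**Figure D3:**
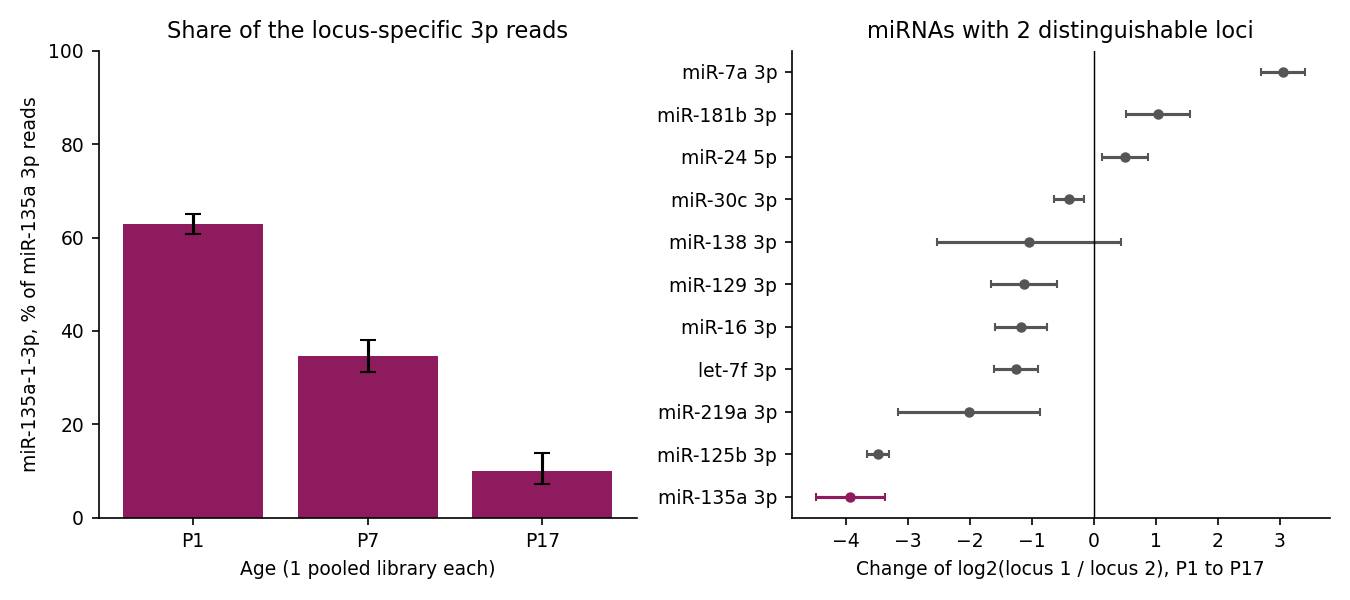
Left, miR-135a-1-3p as a percent of the reads of both miR-135a 3p forms at each age, with 95% Wilson intervals; right, the change from P1 to P17 in the log2 ratio of the first to the second locus for 11 miRNAs, with 95% Woolf intervals of counting error. The share falls from 62.9% to 10.1%, and the change of miR-135a (-3.92) lies next to that of miR-125b (-3.48).

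The ratio of 5p to 3p reads rose with age in both miR-135a and miR-135b. For miR-135a this ratio pools both hairpins, and the share of miR-135a-1-3p in their 3p reads went from 62.9% to 10.1%. A shift between arms and a shift between hairpins therefore cannot be told apart for miR-135a. For miR-135a, reads of the 5p strand exceeded those of both 3p forms together 21.6-fold at P1, 42.4-fold at P7 and 74.7-fold at P17. For miR-135b the ratio was 28.6 at P1, 41.3 at P7 and 65.7 at P17. On the log2 scale the ratio of miR-135a was 4.43 (exact interval 4.36 to 4.50), 5.41 (5.30 to 5.51) and 6.22 (6.06 to 6.39), and that of miR-135b was 4.84 (4.68 to 5.00), 5.37 (5.12 to 5.63) and 6.04 (5.72 to 6.38). The intervals of miR-135a and miR-135b overlapped at P7 and P17 but not at P1, where miR-135a had relatively more 3p reads.

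From P1 to P17 the log2 arm ratio rose by 1.79 for miR-135a (Woolf interval 1.62 to 1.97) and by 1.20 for miR-135b (0.84 to 1.56), and in each case both steps were upward. Among 189 other hairpins with both arms past the filter, the median change was 0.16 and the middle 90% ran from -1.90 to 1.77. Of these hairpins, 9 (4.76%) had a higher change than miR-135a and 26 (13.8%) a higher one than miR-135b. The value of miR-135b lay within the general range of arm ratios in these libraries, and that of miR-135a just above the middle 90%. The 5p strand remained the major one at every age in both.

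**Figure D4:**
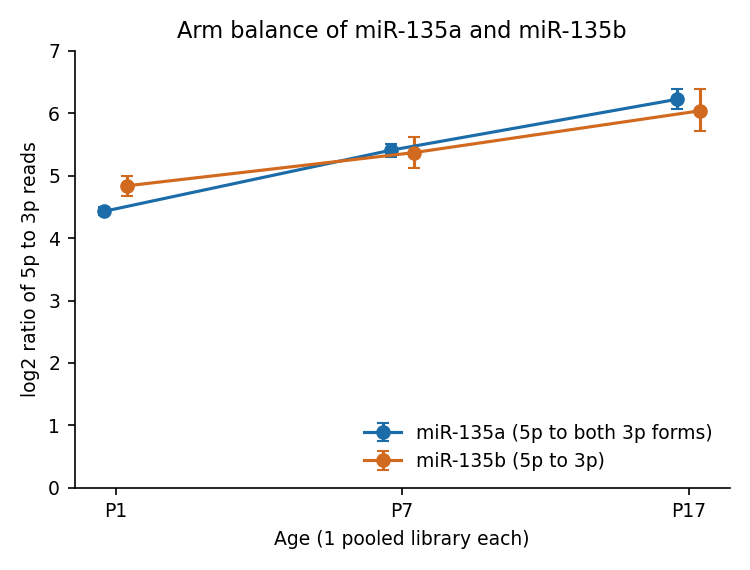
Log2 ratio of 5p to 3p reads at P1, P7 and P17 (1 pooled library per age, evenly spaced) for miR-135a, with both 3p forms summed, and for miR-135b; bars are exact 95% binomial intervals of counting error. Both rise at each step, from 4.43 to 6.22 and from 4.84 to 6.04.

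Among the 3p reads of the whole family, the part of miR-135b-3p stayed between 15.1% and 20.2%. The part of miR-135a-1-3p went from 53.5% to 29.2% and 8.03% in the order of age, and that of miR-135a-2-3p from 31.5% to 55.4% and 71.8%. The log2 ratio of miR-135a-2-3p to miR-135b-3p rose by 0.79 from P1 to P7 (0.45 to 1.12) and changed by -0.02 from P7 to P17 (-0.48 to 0.43), so that after P7 these 3p forms moved in parallel within counting error.

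The let-7g strands, from the hairpin next to Mir135a-1 on chromosome 9, did not share the course of miR-135a-1-3p. Only this rare 3p strand can be assigned to Mir135a-1. The let-7g hairpin lies 24627 bases downstream on the same strand, in the gene Wdr82. Let-7g-5p, one of the abundant let-7 strands, had 30463, 26506 and 29197 RPM in the order of age, a change of -0.06 from P1 to P17. Let-7g-3p, a rare strand as miR-135a-1-3p is, had 37, 17 and 27 reads, a change of -0.35 from P1 to P17. No other miRNA hairpin of the table lay within 50 kb of a miR-135 hairpin.

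For each form, the 5 miRNAs with the most similar course were found by the Euclidean distance of the paired changes (before and after P7) across the 3 libraries. The nearest to miR-135a-1-3p was miR-224-5p, at a distance of 0.09, with 5202, 1226 and 186 reads. It was followed by miR-106a-5p (0.34), miR-301b-3p (0.40), and miR-503-5p and miR-301b-5p (both 0.41), whereas the other forms of the miR-135 family were at distances of 2.15 to 2.89 from it. MiR-135a-2-3p was nearest to miR-342-3p (0.04), miR-362-5p and, with equal reads, let-7a-1-3p and let-7c-2-3p (all 0.06), and miR-3066-5p (0.07). MiR-135a-5p was nearest to miR-6952-3p (0.03), which had few reads, miR-320-3p (0.07), miR-140-5p and miR-483-5p (both 0.10), and miR-148a-3p (0.11). MiR-135b-3p was nearest to miR-28a-3p (0.05), miR-467e-5p (0.08) and miR-297a-3p, miR-297b-3p and miR-297c-3p, which have equal reads (0.10). MiR-135b-5p was nearest to miR-6911-3p (0.05) and miR-1948-5p (0.08), both with few reads, then miR-379-5p (0.08), miR-411-5p and miR-540-3p (both 0.12). With 3 libraries many miRNAs can lie close to a form, and the distances are a description. They rest on log2(RPM + 1), which understates changes of forms with few reads. Among these are miR-135a-1-3p, with 31 reads at P17, and miR-106a-5p, with 10. Distances without the pseudocount were not computed.

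The libraries held the miRNAs of the tissue named in the labels. MiR-183-5p, miR-96-5p and miR-182-5p, which mark photoreceptors and other sensory cells, together had 77854, 304394 and 301141 RPM in the order of age, and the neural miR-124-3p and miR-9-5p had 145803 RPM, 127817 RPM and 86788 RPM. Markers of other cells also moved with age. Endothelial miR-126a-3p went from 1225 RPM at P1 to 8290 RPM at P17, and the mural miR-143-3p and miR-145a-5p from 195 to 1492 RPM. The summed levels of markers of pigment epithelium (2 listed) lay between 7226 and 15211 RPM, of surface epithelium (4) between 273 and 647 RPM, of skeletal muscle (3) between 90.0 and 240 RPM, of red cells (2) between 12.9 and 46.7 RPM, of leukocytes (2) between 7.09 and 9.09 RPM and of liver (1) between 2.27 and 5.78 RPM, with every marker detected in every library. Their part in the changes of miR-135 was not tested, and in a pooled tissue fewer cells of a type and less of a miRNA per cell cannot be told apart.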

How the data were processed

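Small RNA libraries (1 per age, 5 pooled eyes) were made from retinas at P1, P7 and P17, with groups taken from the labels. According to the methods of the study, reads of 50 nt were trimmed and aligned to mm10 with HISAT2, whereas the submitters' processing notes name BWA, FastQC and mm10; the annotation and counting rule are not given in the sources used here. The authors deposited raw read counts per mature miRNA, and the deposited RPM values equal each count over the sum of counts of its library, within 0.0192 RPM. In the 648 miRNAs whose mean level reached 1 RPM, 28 had the same reads as another miRNA in every library, none of them a miR-135 form.

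RPM was used as deposited, as log2(RPM + 1). With 1 library per age no test was made, and a change over 2-fold was called on size alone. One read was worth 0.0784 to 0.0875 RPM. Intervals at 95% were Wilson (shares and levels), exact binomial (ratios) or Woolf (normal intervals, changes of log ratios). The forms, lists and alternatives were chosen with earlier results of these data known. Named besides the 5 forms were miRNAs sharing a seed, hairpins within 50 kb, the 5 nearest courses of each form and cell type markers; miR-1251 and the miRNAs of 2 loci were chosen after their values were seen. Hosts came from GENCODE M21 (GRCm38). Alternatives were pseudocounts of 0.1 and 5 RPM, median-of-ratios and TMM factors (edgeR 4.0.16 in R 4.3.3), a total lacking each library's 10 leading miRNAs (13 in all), other filters and folds, and 0.5 added to counts. Steps were checked on simulated Poisson counts with known changes put in. These counts held no variation between animals or libraries, so the check covers the calculation alone. Calculations ran in scipy 1.17.1, pandas 2.3.3 and numpy 2.4.6 under Python 3.11.15, with plots from matplotlib 3.10.9.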

Additional observations from a re-analysis of the deposited data

How the results depend on the processing

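The scaling set the direction of the 5p strands. The summed 5p reads changed by -0.61 from P1 to P7, -0.27 from P7 to P17 and -0.88 from P1 to P17 with RPM, by 0.35, -0.19 and 0.17 with median-of-ratios size factors, by 0.38, -0.21 and 0.17 with TMM factors, and by 0.017, -0.52 and -0.50 with each library's 10 leading miRNAs taken out of all totals. Each of these scalings moves all miRNAs alike. Pseudocounts of 0.1 and 5 RPM left all 3 values within counting error. From P1 to P17 with RPM, 3 of the 5 forms were lower by over 2-fold, when 46.8% of all 648 miRNAs were. At 1.5-fold the count was 5 and at 4-fold 1, but the shares of all miRNAs past these cuts were not computed. The other pseudocounts and scalings gave 2 or 3 at 2-fold, and no form was over 2-fold higher at any setting. With those pseudocounts and scalings, 155 to 329 of the 648 miRNAs were over 2-fold lower and 51 to 165 higher. For single forms, 39 of 75 alternative values moved beyond counting error and 12 changed sign, all 12 being changes of less than 2-fold with RPM. MiR-135a-1-3p and miR-135b-3p were lower in each pair of ages at every scaling and pseudocount. Shares of miR-135a-5p and arm ratios stayed within their intervals with 0.5 added to each count, as did the change of the locus ratio, for which this was chosen after the values were seen. Depth limits miR-135a-1-3p at P17 (31 reads) and miR-135b-3p (78 reads). No paired analysis was possible because there was a single library at each age.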

Other observations

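Rmst, the long non-coding RNA gene whose intron holds Mir135a-2, also spans the hairpin of miR-1251, which lies on the same strand of chromosome 10 from 92137140 to 92137223, at a distance of 64955 bases. This hairpin was singled out after its values were seen. In the order P1, P7 and P17, miR-1251-5p had 906, 246 and 113 reads, or 79.3, 19.3 and 9.69 RPM. On the log2(RPM + 1) scale it changed by -1.99 from P1 to P7 and by -0.92 from P7 to P17, together -2.91, whereas miR-135a-2-3p changed by -1.34 over the same period. Its 3p strand had 17, 2 and 3 reads, at or under the floor of 3 reads at P7 and P17.

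The miRNAs next to miR-135a in the size of the shift between loci did not all move in one manner. For miR-125b, the first 3p form fell from 3493 to 933 reads while the second went from 493 to 1472. For miR-7a, the first 3p form had 707 reads at P1 and 765 at P17 and the second went from 651 to 85. Both forms of miR-135a had fewer reads at P17 than at P1.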
